A study of Homo sapiens with 9 samples.

Results

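The Frizzled receptors are encoded by 10 human genes, FZD1 to FZD10, and all 10 were found by symbol among the 46427 genes of the deposited tables. Their mRNA was counted in 9 RNA sequencing libraries made from H9, a long-established line of human embryonic stem cells (hESC). There were 3 groups of 3 libraries each. In the first, neural progenitor cells (NPC) on day 11 of differentiation toward midbrain dopamine neurons had been treated with bafilomycin A1 (BafA1 NPC), the second was untreated NPC of the same day (control NPC), and the last was undifferentiated, untreated hESC. Both NPC groups had received LDN193189 (200 nM) and SB431542 (10 µM), which block BMP and TGF-beta type receptors, purmorphamine (2 µM), a Hedgehog agonist, and CHIR99021 (3 µM), a GSK3 inhibitor that activates beta-catenin signalling below the receptors. BafA1, which blocks the proton pump that acidifies lysosomes, was used at 10 nM for 6 h at a time between days 4 and 10, and the labels do not say which window of days the sequenced cells had. All groups come from 1 cell line. The labels call the libraries biological replicates without saying that they came from separate cultures, so p-values measure the spread between these libraries, which may be technical.

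Frizzled proteins are multi-pass membrane receptors whose extracellular cysteine-rich domain binds the lipid of WNT ligands. With the co-receptors LRP5 and LRP6 they recruit Dishevelled (DVL) and stabilise beta-catenin, and with other partners they set planar cell polarity. The ligases ZNRF3 and RNF43 ubiquitinate Frizzled and send it to lysosomes. The series concerns autophagy and the WNT/DVL pathway, so BafA1 NPC against control NPC is its main comparison, and control NPC against hESC covers the differentiation. By sequence the family is usually divided into FZD1, FZD2 and FZD7, then FZD5 and FZD8, then FZD4, FZD9 and FZD10, and last FZD3 and FZD6.

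The promoters of FZD1 and FZD5 are shown because, among the members with an entry in the RefSeq promoter table, these genes differed most between NPC and hESC, and in opposite directions. The table (GRCh38.p14) held 5 of the 10 members, FZD1, FZD4, FZD5, FZD8 and FZD9. Each window runs from 250 bases before to 50 bases after the annotated start and is written 5′ to 3′ on the strand of the gene. That of FZD1 is chr7:91264183-91264482 on the plus strand, and that of FZD5 is chr2:207769857-207770156 on the minus strand. Capitals mark matches on either strand to the GC box GGGCGG and to the CCAAT box.

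FZD1: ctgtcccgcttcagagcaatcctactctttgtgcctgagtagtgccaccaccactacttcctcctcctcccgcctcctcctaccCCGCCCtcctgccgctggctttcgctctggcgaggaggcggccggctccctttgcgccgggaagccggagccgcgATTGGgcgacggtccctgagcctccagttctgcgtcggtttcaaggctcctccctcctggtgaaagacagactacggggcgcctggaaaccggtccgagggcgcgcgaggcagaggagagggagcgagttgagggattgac

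FZD5: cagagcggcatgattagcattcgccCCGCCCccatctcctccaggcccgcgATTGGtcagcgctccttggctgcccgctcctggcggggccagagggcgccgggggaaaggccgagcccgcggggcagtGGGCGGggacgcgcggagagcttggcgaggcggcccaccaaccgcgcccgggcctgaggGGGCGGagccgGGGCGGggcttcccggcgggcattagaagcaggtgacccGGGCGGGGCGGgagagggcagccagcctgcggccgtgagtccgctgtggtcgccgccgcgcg

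FZD1 had 1 GC box and 1 CCAAT box, and FZD5 had 6 GC boxes, some of them overlapping, and 1 CCAAT box. Among 35116 promoters of the same length, 45.0% held the GC box and 34.6% the CCAAT box, so holding either does not set the pair apart. How many promoters hold 6 GC boxes was not counted. GC content was 65.7% in the FZD1 window, above 68.7% of these promoters. In that of FZD5 it was 77.0%, above 93.6% of them, and the median was 58.7%. The letters CTTTGAT, a core of the TCF/LEF motif found in 2.62% of promoters, matched in none of the 5 windows, which says only that these letters are not there. TATAAA, held by 11.5% of promoters, matched once, in FZD8.

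Total counts per library were 43124679 to 69703791 in BafA1 NPC, 49479733 to 56054194 in control NPC and 55706968 to 66544642 in hESC. All 10 Frizzled genes passed the filter on low counts. Changes are log2 fold changes with standard errors (SE) from edgeR's quasi-likelihood test, called at a Benjamini-Hochberg adjusted p under 0.05 over the 20685 genes tested. Levels of 1 gene are given as TMM-scaled CPM (read counts scaled to a common library size), and levels of different genes as FPKM, which divides by transcript length. The labels were read against marker lists, summed over each list as CPM. Of 5 hESC markers, TDGF1 was at 0 in BafA1 NPC, and POU5F1, TDGF1 and PRDM14 were at 0 in control NPC, so that LIN28A carried the hESC sum of 756 to 835 CPM in BafA1 NPC and 513 to 580 in control NPC, against 3895 to 4222 in hESC. The sum of 7 floor plate markers was 546 to 743 CPM in BafA1 NPC, 426 to 736 in control NPC and 121 to 141 in hESC. Neural progenitor markers summed to 1012 to 1228 CPM in BafA1 NPC, 999 to 1032 in control NPC and 522 to 558 in hESC. Mesenchyme markers had the largest sum in NPC, at 3088 to 3458 CPM in BafA1 NPC and 1624 to 2712 in control NPC. In hESC that sum was 165 to 179.9 CPM. In bulk libraries, fewer cells of a type and less RNA per cell cannot be told apart.

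FZD2 and FZD7 were the most abundant Frizzled mRNAs in every group. FZD2 averaged 39.3 ± 1.23 FPKM in BafA1 NPC, 30.8 ± 1.25 in control NPC and 19.0 ± 0.624 in hESC (SD, n = 3). FZD7, known as a main Frizzled of human pluripotent stem cells, averaged 21.1 ± 2.07 FPKM in BafA1 NPC, 26.1 ± 3.79 in control NPC and 35.3 ± 1.91 in hESC. By FPKM, FZD2 therefore led in BafA1 NPC and FZD7 in hESC, while their ranges overlapped in control NPC. Together they made up 69.0 to 70.8% of the summed Frizzled FPKM in BafA1 NPC libraries, 58.6 to 60.3% in control NPC and 70.3 to 71.8% in hESC.

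Below this pair the order differed between the groups. In BafA1 NPC, FZD3 followed at 10.2 FPKM, then FZD6 (5.15) and FZD1 (4.71), whose ranges overlapped. The other 5 ran from FZD8 at 1.71 to FZD10 at 0.823 FPKM, each overlapping its neighbour. In control NPC, FZD3 (13.1 FPKM) was followed by FZD1 (8.32), FZD6 (6.98) and FZD10 (4.64), each overlapping the next. FZD8, FZD4 and FZD9 (1.71 to 1.45) overlapped in the same way, and FZD5 came last at 1.14 FPKM. In hESC, FZD5 came next at 7.14 FPKM, ahead of FZD3 (4.50), FZD6 (3.37), FZD4 (2.39), FZD8 (2.24) and FZD9 (1.69), of which only FZD4 and FZD8 overlapped. FZD1 (0.686) and FZD10 (0.0805 FPKM) were lowest in hESC.

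**Figure D1:**
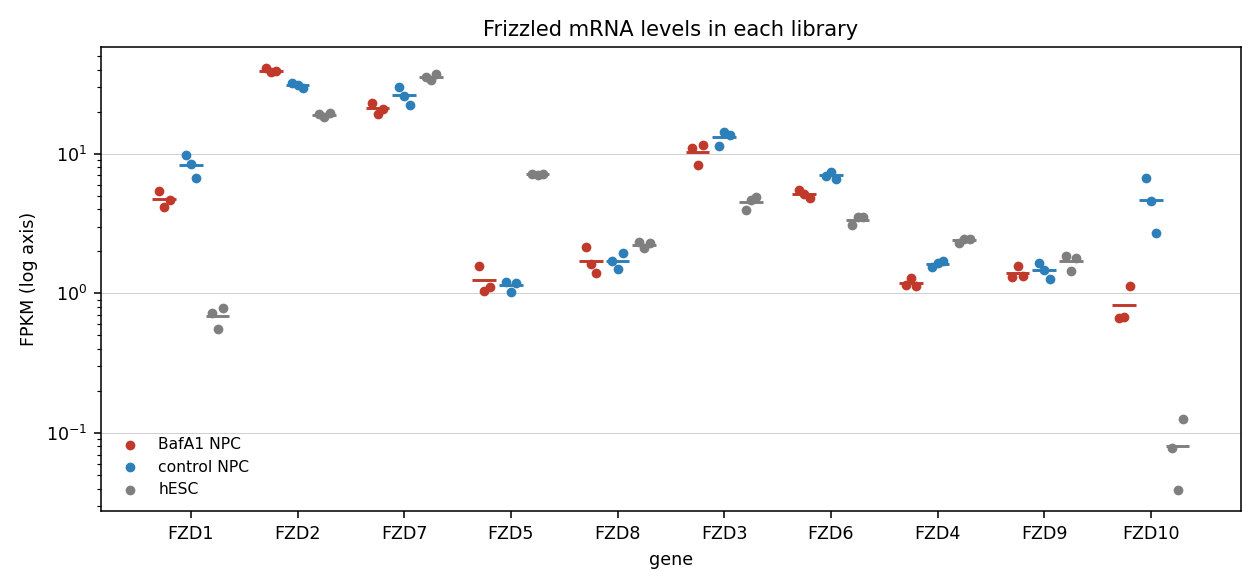
FPKM of each Frizzled gene (log axis) in each library, with BafA1 NPC, control NPC and hESC from left to right within a gene; points are libraries and lines are group means. FZD10 spans 0.0389 FPKM in an hESC library to 6.64 FPKM in a control NPC library, and FZD1 and FZD5 separate NPC from hESC in opposite directions.

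The FPKM of all 10 genes summed to 86.9 ± 5.76 in BafA1 NPC, 95.8 ± 7.53 in control NPC and 76.4 ± 3.11 in hESC (SD, n = 3), with overlapping libraries between the NPC groups. FZD2 alone held 45.3 ± 1.68% of that sum in BafA1 NPC, 32.2 ± 1.26% in control NPC and 24.9 ± 0.404% in hESC. The share of FZD7 was 24.3 ± 0.778% in BafA1 NPC, 27.1 ± 1.88% in control NPC and 46.2 ± 0.694% in hESC. FZD10 held 0.950 ± 0.299% in BafA1 NPC, against 4.75 ± 1.71% in control NPC and 0.104 ± 0.0517% in hESC. Shares, and the order of the genes within a group, depend on the transcript length used. With CPM per kilobase of the longest GENCODE transcript, which for FZD2 is 2112 bases against a RefSeq gene span of 3779, FZD2 stood at 83.9 in BafA1 NPC, 64.6 in control NPC and 38.6 in hESC, and FZD7 at 25.1 in BafA1 NPC, 30.5 in control NPC and 40.1 in hESC.

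**Figure D2:**
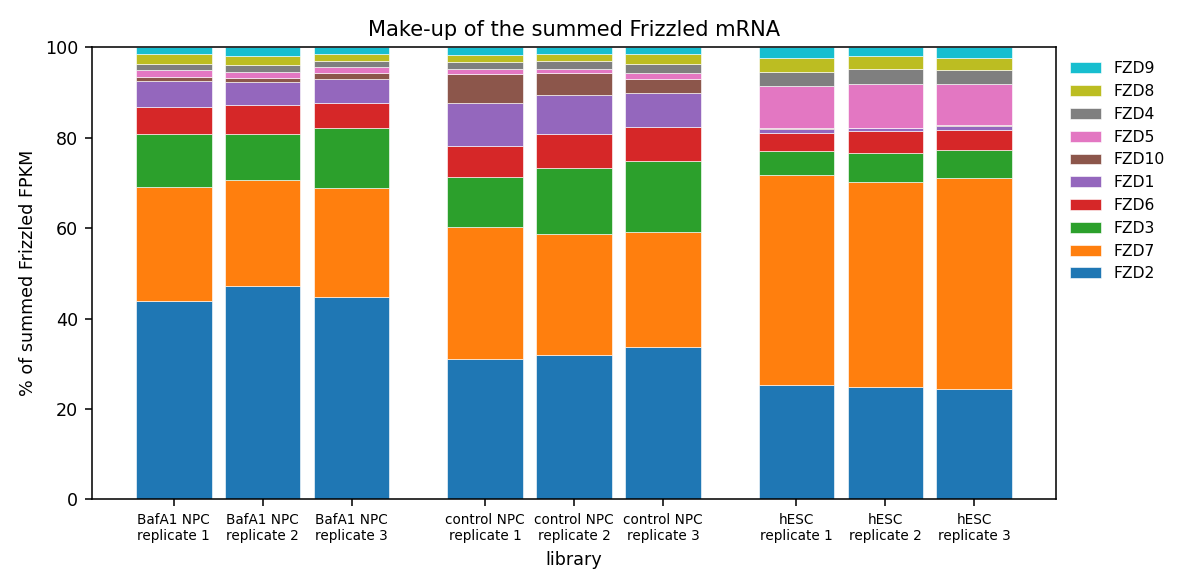
Share of each Frizzled gene (%) in the summed Frizzled FPKM of each library, with the BafA1 NPC, control NPC and hESC libraries from left to right. FZD2 and FZD7 fill 58.6 to 71.8% of every bar, FZD5 is visible mainly in hESC, and FZD10 mainly in control NPC.

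BafA1 NPC were first compared with control NPC. FZD10 fell 5.04-fold, FZD1 fell 1.59-fold, FZD6 and FZD4 fell by smaller amounts, and FZD2 rose. Thus 1 Frizzled gene was called higher and 4 lower, and 5 were not called. Over all genes tested 41.5% were called, 20.8% higher and 20.7% lower, so that 5 of 10 Frizzled genes is near the background. The even split of all genes depends on the scaling. With library size alone 3104 were called higher and 5681 lower, and with limma on log2(FPKM + 1) 2520 higher and 5268 lower, while the Frizzled counts were 1 higher and 4 lower in both. In all 5 the libraries of the groups did not overlap, as in 8049 of the 8586 genes called. Genes both called and without overlap made up 38.9% of all genes tested. The median log2 change was -0.18 over the Frizzled genes and 0.0 over all genes tested. The 4 lower genes became 2, FZD1 and FZD10, without BafA1 NPC replicate 3 or without control NPC replicate 2, and also with GC and length trends removed, where edgeR called 0 Frizzled genes higher (1 at an unadjusted p under 0.05, and 1 called by DESeq2 without that removal). FZD10 was the 1 member called with an absolute log2 change of at least 1, which 10.9% of all genes met.

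FZD10, known from the dorsal neural tube of mouse and chick embryos, had the widest range of the family. It had 144, 120 and 287 counts (2.62, 2.92 and 4.46 CPM) in BafA1 NPC, against 1258, 982 and 564 counts (24.2, 16.6 and 9.93 CPM) in control NPC. The groups did not overlap, although control libraries differed among themselves by 2.44-fold. The log2 change was -2.33 ± 0.33 (SE, edgeR adjusted p = 0.000252), with a 95% interval of -3.06 to -1.61. It was called in all 17 alternative settings, from -2.61 to -1.58.

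FZD10-AS1, a gene outside the naming rule that was chosen after its values were seen, lies 785 bases upstream of FZD10 on the opposite strand of chromosome 12 without overlapping it. It had 2.48, 3.66 and 2.64 CPM in BafA1 NPC, against 9.59, 11.1 and 7.80 CPM in control NPC. It fell by 1.71 ± 0.33 on the log2 scale (SE, edgeR adjusted p = 0.00167). The other neighbour examined, FZD4-DT, lies 225 bases from FZD4 and was not called (-0.5, edgeR adjusted p = 0.237). It averaged 0.502 CPM in BafA1 NPC and 0.712 in control NPC. In control NPC against hESC, FZD4-DT was higher (0.84, edgeR adjusted p = 0.0398), whereas FZD4 was lower (-0.61). FZD10 itself lies at 130162464 to 130165740 on the plus strand and has 1 exon.

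In the FZD1, FZD2 and FZD7 subfamily, the members did not move together. FZD1 (chromosome 7, 91264433 to 91271326) had 44.4, 37.0 and 38.6 CPM in BafA1 NPC, against 74.8, 64.1 and 52.4 CPM in control NPC. The groups did not overlap, and the log2 change was -0.67 ± 0.14 (SE, edgeR adjusted p = 0.00278), called in all 17 alternatives. FZD7 (chromosome 2, 202033855 to 202038441) had 107, 95.8 and 97.8 CPM in BafA1 NPC, against 128, 109.7 and 97.3 CPM in control NPC. These overlapped, and the change of -0.16 was not called (95% interval -0.38 to 0.06).

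FZD2 (chromosome 17, 44557484 to 44561262) had 184, 188 and 178 CPM in BafA1 NPC, against 134, 128 and 126 CPM in control NPC. Every BafA1 library lay above every control library, and replicates differed by 1.07-fold at most. The log2 change was 0.50 ± 0.07 (SE, edgeR adjusted p = 0.000242). With trends in GC content and length removed it was 0.16 and no longer called (edgeR adjusted p = 0.061). The GENCODE transcript of FZD2 used for that removal has 2112 bases, against a RefSeq gene span of 3779. It is 64.9% GC, above 96.1% of the tested genes with a value, and the GC content of the full span was not measured. Across genes, the rank correlation of each library's deviation with GC content was -0.036 to 0.057 in BafA1 NPC. In control NPC that correlation was -0.368 to -0.143. FZD1, FZD2 and FZD7 share some sequence. Of the 31-base words of the 2112-base FZD2 transcript, 7.16% (149 of 2082) recur in other Frizzled transcripts, mostly FZD7. Of the words of FZD7, 3.08% (118 of 3829) do. The labels do not say how such reads were counted.

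FZD3 and FZD6, which act in planar cell polarity and, in the mouse, in axon guidance and hair patterning, lie on chromosome 8. FZD3 had 179.9, 147 and 185 CPM in BafA1 NPC, against 171, 209.7 and 207 CPM in control NPC, with overlap between the groups. Its change of -0.20 was not called (95% interval -0.45 to 0.06). FZD6 had 23.9, 24.3 and 21.4 CPM in BafA1 NPC, against 28.1, 30.0 and 27.4 CPM in control NPC. These did not overlap, and the log2 change was -0.30 ± 0.09 (SE, edgeR adjusted p = 0.0231). The call was lost without BafA1 NPC replicate 3 (-0.24, edgeR adjusted p = 0.085), without control NPC replicate 2 (-0.26, 0.0974) and with GC and length trends removed (-0.15, 0.244).

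FZD4 (chromosome 11, 86945679 to 86955395), the receptor for norrin in retinal vessels, had 10.2, 12.4 and 10.0 CPM in BafA1 NPC, against 12.6, 13.3 and 14.2 CPM in control NPC. The groups were separated by a small gap, and the log2 change was -0.31 ± 0.11 (SE, edgeR adjusted p = 0.0439). The call was lost in 8 of 17 alternatives, among them the fits without BafA1 NPC replicate 1 (-0.26) or 3 (-0.25) and without control NPC replicate 2 (-0.31) or 3 (-0.26).

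FZD5, which in the mouse acts in eye development, and its close relative FZD8 were not called. FZD5 had 13.2, 10.5 and 10.3 CPM in BafA1 NPC, against 10.9, 8.96 and 10.5 CPM in control NPC (log2 change 0.17, 95% interval -0.08 to 0.41). FZD8 (chromosome 10, 35638247 to 35642296) had 8.10, 6.75 and 5.37 CPM in BafA1 NPC, against 6.03, 5.17 and 7.02 CPM in control NPC (0.15, -0.23 to 0.53). FZD9 (chromosome 7, 73433778 to 73436120) had 3.64, 4.80 and 3.76 CPM in BafA1 NPC, against 4.27, 3.75 and 3.36 CPM in control NPC (0.10, -0.29 to 0.48). In all 3 genes the groups overlapped, and each interval includes both small falls and rises of more than 0.40. With GC and length trends removed the uncalled values changed sign, to -0.10 in FZD8 and -0.32 in FZD9, whose transcripts are 64.6% and 68.4% GC. FZD9 was also below 0 without BafA1 NPC replicate 2 (-0.04).

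Some markers of several cell types were also called between these groups. Their counts stand against 20.8% of all genes called higher and 20.7% called lower. The 6 mesenchyme markers summed to 3088 to 3458 CPM in BafA1 NPC, against 1624 to 2712 CPM in control NPC. Of them 3 were called higher (COL1A1, COL1A2 and PDGFRA) and 1 lower (LUM), while COL3A1 (-0.18) and TWIST1 (-0.38) were not called. COL1A1 (1963 ± 129.8 CPM in BafA1 NPC, 1211 ± 361 in control NPC) and COL1A2 (1100.0 ± 97.1 in BafA1 NPC, 738 ± 179.8 in control NPC) carried the sum (SD, n = 3). Of the floor plate markers FOXA2 (0.68 on the log2 scale) and MSX1 (0.84) were higher in BafA1 NPC and 5 were not called. Of the neural progenitor markers SOX2 (0.34) and PAX6 (1.45) were higher, SOX1 (-0.67) was lower and 2 were not called. PAX6 was low, at 1.04 CPM in BafA1 NPC and 0.38 in control NPC, and the SOX1 libraries overlapped between the groups. LIN28A (0.55) was called higher and KDR (-1.30) lower. SOX10 was also called higher, but with overlapping libraries and near the floor, at a mean of 0.0983 CPM in BafA1 NPC and 0 in control NPC. The part of these genes in the Frizzled changes was not tested. Neuron markers summed to 307 to 342 CPM in BafA1 NPC and 296 to 357 in control NPC, which overlap. Low sums were found for markers of neural crest (4.39 to 5.83 CPM in BafA1 NPC, 4.72 to 5.40 in control NPC), endoderm (1.04 to 2.59 in BafA1 NPC, 0.727 to 1.41 in control NPC) and endothelium (3.05 to 3.70 in BafA1 NPC, 4.54 to 9.41 in control NPC).

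**Figure D3:**
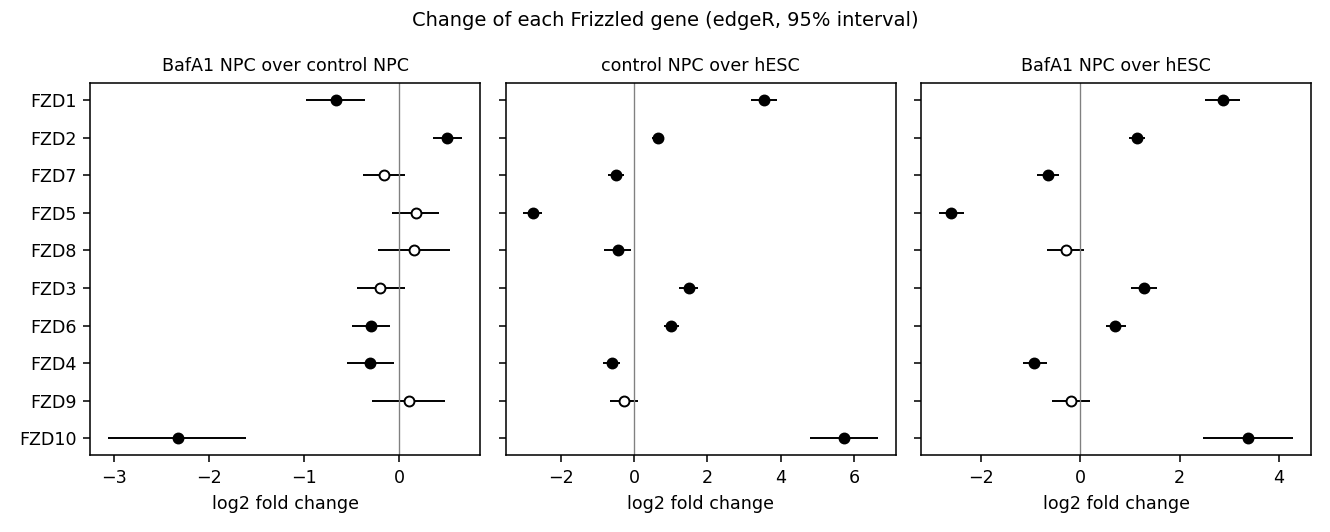
Log2 fold change of each Frizzled gene in BafA1 NPC over control NPC, control NPC over hESC and BafA1 NPC over hESC (edgeR; bars are 95% intervals, filled points have an adjusted p under 0.05, and the panels have different scales). FZD10 has the lowest value in the BafA1 panel (-2.33) and the highest in both panels against hESC (5.72 and 3.38), and FZD5 has the lowest value in both of those (-2.76 and -2.59).

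**Figure D4:**
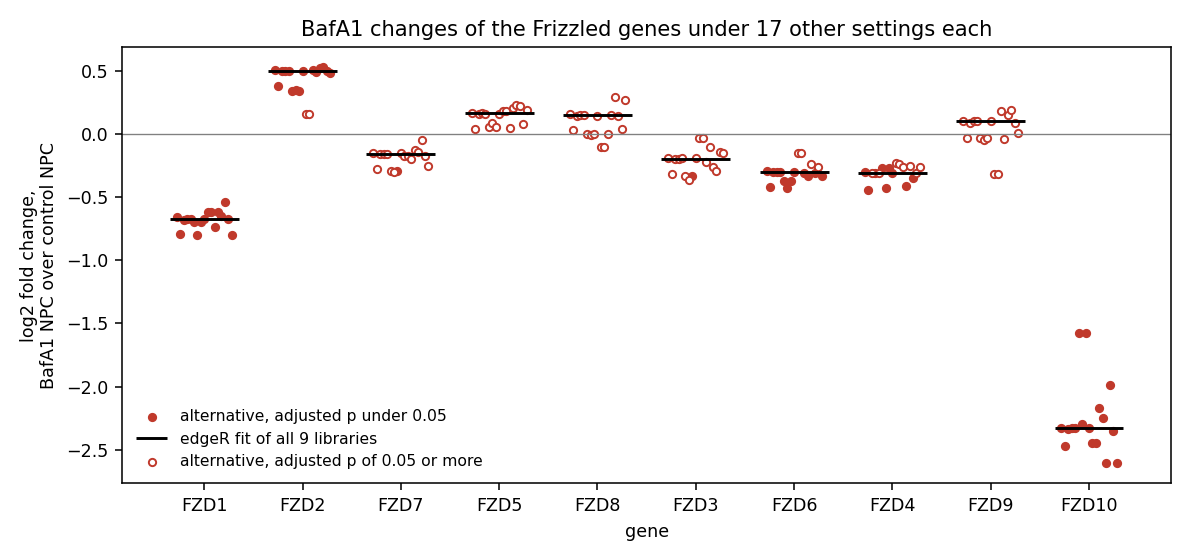
Log2 fold change in BafA1 NPC over control NPC for each Frizzled gene under 17 alternative settings (points, filled where the adjusted p is under 0.05) and in the edgeR fit of all 9 libraries (line). Every point of FZD1 and FZD10 is filled and below 0, whereas FZD2, FZD4 and FZD6 each have open points.

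Control NPC against hESC gave changes of up to 52.6-fold. FZD10, FZD1, FZD3, FZD6 and FZD2 rose, and FZD5, FZD4, FZD7 and FZD8 fell, while FZD9 was not called. Of all genes tested, 64.5% were called (33.0% higher, 31.6% lower), so 9 of 10 calls stand against a high background. In all 9 the libraries did not overlap, as in 13149 of the 13345 genes called. Genes both called and without overlap made up 63.6% of all genes tested. The median log2 change was 0.18 over the Frizzled genes and 0.03 over all genes. Calls with an absolute log2 change of at least 1 were made for FZD10, FZD1, FZD3, FZD6 and FZD5, against 34.0% of all genes, and FZD6 (1.01) was below 1 in several alternatives.

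FZD10 had 9.93 to 24.2 CPM in control NPC, against 0.307, 0.166 and 0.478 CPM (20, 9 and 28 counts) in hESC, and rose by 5.72 ± 0.42 on the log2 scale (SE, edgeR adjusted p = 2.11e-07). FZD1 had 52.4 to 74.8 CPM in control NPC, against 5.82, 4.45 and 6.16 CPM in hESC, and rose by 3.54 ± 0.16 (edgeR adjusted p = 3.11e-09). Both were near the bottom of the family in hESC and among its middle members in control NPC. FZD5 fell to 8.96 to 10.9 CPM in control NPC, against 70.0, 68.4 and 67.0 CPM in hESC. Its log2 change was -2.76 ± 0.12 (SE, edgeR adjusted p = 1.78e-09). FZD8, the relative of FZD5, had 6.07 ± 0.927 CPM in control NPC and 8.26 ± 0.370 CPM in hESC (SD, n = 3).

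The change of FZD8 was -0.44 ± 0.17 (SE, edgeR adjusted p = 0.0377). That call was lost in 12 of 17 alternatives, including the fits without control NPC replicate 1 (-0.44) or 2 (-0.34) and without hESC replicate 1 (-0.42), 2 (-0.48) or 3 (-0.44), and the value was 0.08 with GC and length trends removed. Among the more abundant members, FZD3 had 171 to 209.7 CPM in control NPC, against 61.7 to 74.2 CPM in hESC (log2 change 1.49 ± 0.12, SE). FZD6 had 27.4 to 30.0 CPM in control NPC, against 13.1 to 15.1 CPM in hESC (1.01 ± 0.09), and FZD2 had 126 to 134 CPM in control NPC, against 80.9 to 84.4 CPM in hESC (0.64 ± 0.07). FZD7 fell by 0.50 on the log2 scale, with 97.3 to 128 CPM in control NPC and 150.5 to 164 CPM in hESC. FZD4 fell by 0.61, with 12.6 to 14.2 CPM in control NPC and 19.6 to 21.2 CPM in hESC. The calls of these 5 genes were kept in all 17 alternatives, although removal of GC and length trends gave 1.17 for FZD2, 0.96 for FZD3, 0.69 for FZD6 and -0.29 for FZD7, and limma on log2(FPKM + 1) gave -0.37 for FZD4. That scale understates low genes, and FZD10 rose by 2.32 on it. FZD9 stood at 3.36 to 4.27 CPM in control NPC and 3.99 to 5.04 CPM in hESC, which overlap (-0.28, 95% interval -0.66 to 0.10).

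BafA1 NPC against hESC shares its hESC libraries with the comparison above and its BafA1 libraries with the first. Of the Frizzled genes 5 were called higher and 3 lower, against 70.4% of all genes called (35.5% higher, 34.8% lower), and the medians were 0.26 over the Frizzled genes and 0.02 over all genes. The libraries did not overlap in any of the 8, as in 14198 of the 14557 genes called. Genes both called and without overlap made up 68.6% of all genes tested. Of the 8, 5 changed by at least 1 on the log2 scale, and 39.0% of all genes were called with such a change. FZD10 was 10.4-fold higher in BafA1 NPC than in hESC (log2 change 3.38 ± 0.42, SE, edgeR adjusted p = 1.48e-05), and FZD1 7.29-fold higher (2.87 ± 0.16). On the log2(FPKM + 1) scale these rises were 0.75 and 1.76. FZD3, FZD2 and FZD6 rose by 1.29, 1.14 and 0.71 on the log2 scale. FZD5, FZD4 and FZD7 fell by 2.59, 0.92 and 0.65. FZD8 (-0.29, 95% interval -0.67 to 0.08) and FZD9 (-0.18, -0.57 to 0.20) were not called, but FZD8 was called without BafA1 NPC replicate 1 (-0.46, edgeR adjusted p = 0.0312).

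Partner genes were read from the same fits. For BafA1 NPC against control NPC, the list counts here and in the next paragraphs stand against 20.8% of all genes called higher. The share called lower was 20.7%. In BafA1 NPC against control NPC, the co-receptor genes LRP5 (67.9 ± 5.30 CPM in BafA1 NPC, 59.2 ± 4.46 in control NPC) and LRP6 (89.1 ± 13.1 CPM in BafA1 NPC, 92.0 ± 4.60 in control NPC) were not called (SD, n = 3). The list of WNT co-receptors and other WNT receptors had 6 tested genes, of which PTK7 was higher, ROR1 and ROR2 were lower, and LRP5, LRP6 and RYK were not called (median log2 change -0.10). Of 4 genes listed as ligand-specific co-receptors 1 was lower, TSPAN12, which works with FZD4, and 3 were not called (median -0.21). Those 3 were RECK (0.24), ADGRA2 (0.12) and NDP (-1.06), which encodes norrin, a ligand and not a co-receptor. NDP was low, at 0.202 CPM in BafA1 NPC and 0.414 in control NPC, and the median below 0 depends on it. All 3 Dishevelled genes, which act directly below Frizzled, were called higher (median 0.30). DVL1 had 53.8, 59.1 and 64.1 CPM in BafA1 NPC, against 43.8, 40.3 and 40.2 CPM in control NPC (log2 change 0.51 ± 0.08, SE). DVL2 changed by 0.30 ± 0.07 and DVL3 by 0.28 ± 0.07. With library size alone as the scaling, which shifted the median of all genes by -0.12, DVL2 (0.18) and DVL3 (0.15) were not called, nor were they with limma on FPKM. With GC and length trends removed DVL1 (0.18) and DVL2 (0.13) were not.

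Of 9 genes that control Frizzled at the cell surface, 2 were higher and 2 lower in BafA1 NPC (median 0.24). The Frizzled ligase gene RNF43 had 2.97, 2.51 and 2.58 CPM in BafA1 NPC, against 7.20, 5.96 and 4.63 CPM in control NPC, and fell by 1.14 ± 0.18 on the log2 scale (SE, edgeR adjusted p = 0.000557). Its relative ZNRF3 had 129, 121 and 123 CPM in BafA1 NPC, against 104, 96.0 and 84.2 CPM in control NPC, and rose by 0.39 ± 0.09 (edgeR adjusted p = 0.00349), a call lost with limma on FPKM. The ligase genes thus moved in opposite directions, RNF43 at the lower level. Of 8 other genes for proteins with a Frizzled-type cysteine-rich domain, 2 were higher and 2 lower (median -0.35, or 0.06 with the 2 genes at 0 in BafA1 NPC taken at a floor of 3 counts per library or left out where control NPC was also at or under it). The secreted WNT antagonist FRZB fell to 16.7 ± 3.19 CPM in BafA1 NPC, against 38.4 ± 6.04 in control NPC (-1.20 ± 0.15, SE), and SFRP4 rose to 3.15 ± 0.796 CPM in BafA1 NPC, against 0.666 ± 0.311 in control NPC (2.23 ± 0.38). Of 7 planar cell polarity partners 2 were higher and 2 lower (median -0.04). Some of these counts were not stable. The polarity genes called higher became 1 in 10 of 17 alternatives, and the cell surface genes called lower became 1 in 11 of 17.

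Of 15 WNT ligand genes tested, 3 were higher and 4 lower (median 0.0, or -0.03 without WNT16, at 0 in both NPC groups). WNT7A rose to 11.5 ± 2.46 CPM in BafA1 NPC, against 1.78 ± 0.555 in control NPC, and WNT7B rose to 14.5 ± 2.64 CPM in BafA1 NPC, against 2.83 ± 1.22 in control NPC (SD, n = 3). WNT4 fell to 1.40 ± 0.260 CPM in BafA1 NPC, against 5.14 ± 1.63 in control NPC, and WNT3 to 3.98 ± 0.210 CPM in BafA1 NPC, against 8.71 ± 0.588 in control NPC. WNT9A and WNT9B fell by 1.01 and 1.12 on the log2 scale, the second a call lost without BafA1 NPC replicate 3 (-1.02, edgeR adjusted p = 0.0514). WNT1 rose by 1.52 ± 0.52 (SE), at no more than 1.0 CPM in any library, and that call was lost in 11 alternatives, including the fits without BafA1 NPC replicate 1 (1.12) or 2 (1.49) and without control NPC replicate 1 (1.52) or 2 (1.29).

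Of 9 beta-catenin target genes, which include RNF43 and ZNRF3, 2 were higher and 4 lower in BafA1 NPC (median -0.38). The number called higher ranged from 0 to 2 and was below 2 in 8 of 17 alternatives. AXIN2, a feedback inhibitor, had 150.0 ± 3.65 CPM in BafA1 NPC and 154 ± 22.9 CPM in control NPC and was not called. LEF1 had 40.6 ± 0.684 CPM in BafA1 NPC and 52.7 ± 12.2 in control NPC (log2 change -0.38, edgeR adjusted p = 0.0613), and was called in 4 alternatives: without control NPC replicate 3 (-0.55, edgeR adjusted p = 0.00249), with library size alone (-0.50, 0.0195), with GC and length trends removed (-0.38, 0.042) and with limma at a mean FPKM of 1 or more (-0.49, 0.0151). TCF7 fell to 5.88 ± 1.23 CPM in BafA1 NPC, against 14.4 ± 1.93 in control NPC (-1.30 ± 0.16, SE).

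In control NPC against hESC all 9 target genes were higher (median 4.79). Also higher were 11 of 15 ligands (1 lower, median 2.98, or 2.20 with genes at 0 in 1 group at their bound). Of 9 cell surface regulators 5 were higher and 3 lower (median 1.02), and of 8 cysteine-rich domain genes 4 higher and 3 lower (median 0.25). Of 7 polarity partners 4 were higher and 1 lower (median 0.49), and of 6 other receptors 2 higher and 1 lower (median 0.03). Of 4 genes listed as ligand-specific co-receptors, with the ligand gene NDP (1.34, not called) among them, 1 was higher and 1 lower (median 0.74). Of 3 Dishevelled genes 1 was higher and 1 lower (median 0.04). The Frizzled counts were 5 higher and 4 lower of 10 (median 0.18). Over all genes 33.0% were higher and 31.6% lower, and the shares called higher of the other receptors, the ligand-specific co-receptors and the Dishevelled genes are near the first of these.

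**Figure D5:**
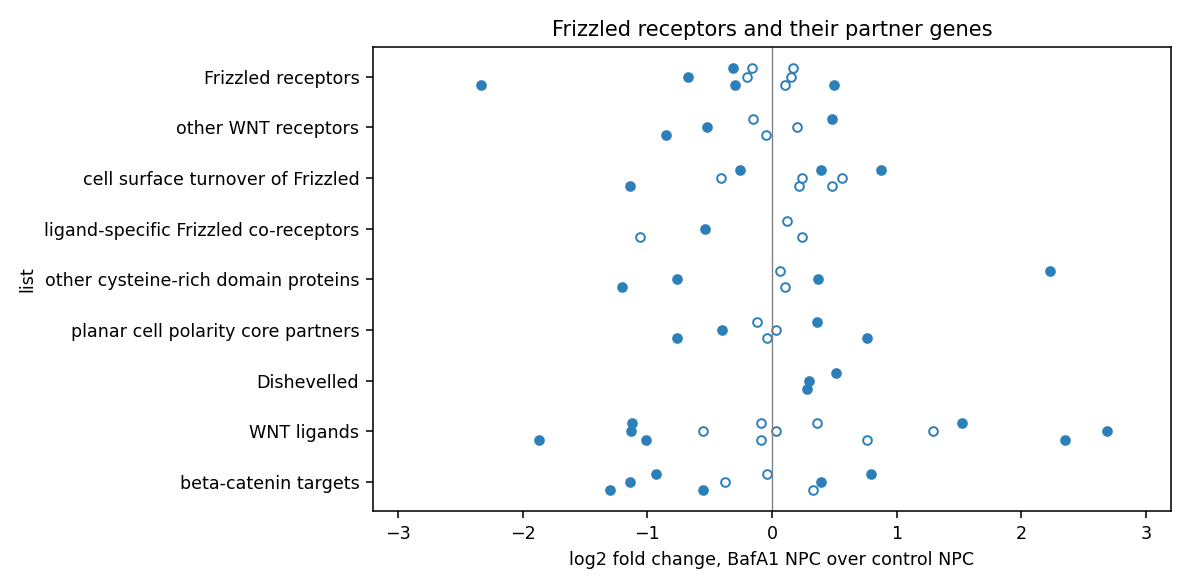
Log2 fold change in BafA1 NPC over control NPC of the Frizzled genes and of each tested partner gene, by list (filled points have an edgeR adjusted p under 0.05; MFRP, SFRP5 and WNT16, at 0 in BafA1 NPC, are not drawn, and RNF43 and ZNRF3 stand in both the turnover and the target rows). Filled points lie on both sides of 0 in most rows, and all 3 Dishevelled points are filled and above 0.

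The genes most like each Frizzled gene were found by the root mean square difference of centred log2(CPM + 1) over the 9 libraries, among 14639 genes with a mean of at least 1 CPM. For FZD10 they were NT5E (0.221), KIF26B (0.310) and PLXNA2 (0.333), and the nearest Frizzled was FZD1 (0.618). For FZD1 they were BGN (0.119), MAP1A (0.196) and ST8SIA4 (0.208). FZD2 was nearest to VAMP2 (0.0472) and FZD5 to MFGE8 (0.0791). FZD7 and FZD4, which both were lower in NPC than in hESC, were each other's nearest Frizzled (0.193), as were FZD8 and FZD9 (0.216) and FZD3 and FZD6 (0.301). Among all genes compared, however, the members of these pairs ranked only 830 to 2335 in nearness to each other. A small difference is easily met by genes that vary little, so these values describe the libraries only.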

How the data were processed

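Per the labels' protocols, a stranded kit for mRNA was used, and per the submitters' processing notes reads were trimmed with Trimmomatic and GRCh38 was the genome build. No source used here gives the aligner or the counting tool. The authors deposited whole-number read counts per gene and FPKM values (fragments scaled by transcript length and library size) per gene and library, per the file headers. Columns were matched to samples by name, and the columns named as control were taken as the untreated neural progenitors, the only group left for them.

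Counts were tested with edgeR 4.0.16 in R 4.3.3 (TMM scaling, filterByExpr, glmQLFit and glmQLFTest on all 9 libraries, 1 term per group, two-sided). Adjustment was by Benjamini-Hochberg over the 20685 genes tested, and a gene was called at an adjusted p under 0.05. The fit was tested on simulated data. Alternatives used DESeq2 1.42.0, limma 3.58.1 on log2(FPKM + 1) or log2(FPKM + 0.1), other filters and scalings, removal of GC and length trends, a replicate block and each library left out in turn. The Frizzled genes, the partner and marker lists and the tests were chosen with earlier results of these data known. All Frizzled genes are named, as are partner genes called in BafA1 NPC against control NPC with an absolute log2 change of 1 or more, and LRP5, LRP6, DVL1 to DVL3, RNF43, ZNRF3, AXIN2 and LEF1. Gene coordinates and promoters came from RefSeq (GRCh38.p14), and transcript length and GC content from GENCODE transcripts.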

Additional observations from a re-analysis of the deposited data

How the results depend on the processing

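For each Frizzled gene and comparison, 17 alternatives were run. In BafA1 NPC against control NPC, 144 of 170 values kept direction and call, 14 lost the call, 2 gained it and 10 changed sign. In control NPC against hESC these numbers were 156, 10, 0 and 4, and in BafA1 NPC against hESC 168, 0, 2 and 0. Where no value shows the cause, the cause was not tested.

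In BafA1 NPC against control NPC, removal of GC and length trends gave FZD2 0.16, FZD4 -0.23, FZD6 -0.15, FZD8 -0.10 and FZD9 -0.32, none called, so that edgeR found 0 Frizzled genes higher (1 at an unadjusted p under 0.05) and 2 lower. With the replicate block as well, they were 0.16, -0.24, -0.15, -0.10 and -0.32, again 0 higher (1 unadjusted) and 2 lower. FZD4 lost its call without the low-count filter (-0.31) and with only the compared groups (-0.31). FZD3 (-0.33) and FZD7 (-0.29) were called with limma on log2(FPKM + 1) at a mean FPKM of 1 or more. FZD8 was -0.01 with log2(FPKM + 0.1). FZD9 was -0.03 with library size alone, -0.03 and -0.05 with log2(FPKM + 1) and log2(FPKM + 0.1), -0.03 at a mean FPKM of 1 or more, and -0.04 to 0.19 with a library left out, the lowest without BafA1 NPC replicate 2. With a library left out, FZD4 ranged from -0.41 to -0.25, FZD6 from -0.33 to -0.24, and the lower Frizzled genes numbered 2 to 4.

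In control NPC against hESC, FZD8 lost its call with library size alone (-0.34), without the filter (-0.44) and with limma (-0.26, -0.38 and -0.26), was 0.08 with trends removed, with or without the block, and ranged from -0.56 to -0.34 with a library left out. FZD9 was 0.25 with trends removed, with or without the block. In BafA1 NPC against hESC, FZD8 was called with limma at a mean FPKM of 1 or more (-0.26) and ranged from -0.46 to -0.15 with a library left out.

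The labels do not say that the numbers pair libraries, so the main fit had no block. Same-numbered libraries did not deviate together (correlations -0.0554 to 0.0877). The replicate block alone changed no Frizzled call, leaving 1 higher and 4 lower in BafA1 NPC against control NPC. It gave 4112 genes higher and 4130 lower over the whole table, against 4309 and 4277 without it. Limma moved the split of all genes. In BafA1 NPC against control NPC it called 2520, 2537 and 2358 genes higher and 5268, 5260 and 4901 lower, and library size alone gave 3104 higher and 5681 lower. In control NPC against hESC limma called 5141 higher and 4057 lower at a mean FPKM of 1 or more, and in BafA1 NPC against hESC 4704 higher and 5475 lower there. The median of all genes moved by -0.12 in BafA1 NPC against control NPC and to 0.14 in control NPC against hESC with library size alone.

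Among named partner genes, 578 of 631 values kept direction and call. Those that changed sign in BafA1 NPC against control NPC were LRP5 (-0.01 with trends removed and the block), LRP6 (0.09 with trends removed, with or without the block, and -0.11 to 0.07 with a library left out) and AXIN2 (-0.13 to 0.08 with a library left out). In control NPC against hESC they were LRP5 (0.29, called), DVL1 (0.12) and WNT9A (0.21, or 0.24 with the block) with trends removed and LRP6 (0.03) with library size alone. With trends removed LRP6 (-0.49) and DVL3 (0.37) were called there. Of the 544 counts of called partner genes by list, 84 moved by more than 1.5 times. In BafA1 NPC against control NPC, ligands called higher ranged from 1 to 5 and lower from 2 to 5, and Dishevelled genes called higher from 1 to 3. Levels per RefSeq transcript length were not run, since the tables used hold no such lengths. The GENCODE lengths, chosen after seeing the data, moved 24 of 30 shares by more than the spread between replicates. Depth limits FZD10 in hESC, at 9 to 28 counts.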
